A study of Homo sapiens with 6 samples.

Results

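HSPD1 and HSPE1, the genes of the mitochondrial chaperonin and its lid, stood at their highest levels in OVCAR5 cells treated with SpiD7 for 6 h and 12 h, while 8 other mitochondrial chaperone and protease genes were less than 2-fold from the mean of the vehicle. The 10 genes followed here were HSPD1, HSPE1, HSPA9, TRAP1, DNAJA3, LONP1, CLPP, CLPX, YME1L1 and GRPEL1. They were chosen by name for their part in protein folding and protein turnover within mitochondria, and all 10 were found among the 29982 gene symbols of the table. All 10 passed a mean level of 1 FPKM (fragments counted per length of transcript and per depth of the library), as did 13287 genes in all.

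OVCAR5 is a human ovarian cancer cell line, and SpiD7 is a spirocyclic dimer built to modify surface-exposed cysteines of proteins covalently. The libraries were made to ask whether SpiD7 activates the unfolded protein response. The 6 libraries came from OVCAR5 cells treated with the vehicle DMSO (2 libraries) or with 10 µM SpiD7 for 2 h (2 libraries), 6 h (1 library) or 12 h (1 library). The labels give no time for the DMSO treatment, and nothing states that replicates came from separate cultures, so the spread between them may be technical. The second DMSO library and the second 2 h library were recovered from columns named for replicate 2, which are read here, from their values alone, as group means of the authors, and are called the recovered libraries below.

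Proteins made in the cytosol enter mitochondria unfolded, are pulled in by a mitochondrial HSP70 and fold with the help of HSP70 and of a barrel-shaped chaperonin. Proteases of the AAA+ family remove those that misfold. When unfolded proteins build up in the mitochondrial matrix, cells can raise nuclear genes for these chaperones and proteases, which is called the mitochondrial unfolded protein response, with ATF5, ATF4 and CHOP among the factors linked to it in mammals. The cytosolic heat shock response, driven by HSF1, is known to include HSPD1 and HSPE1 as well.

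The libraries differed in ways that the groups do not explain. In the recovered DMSO library, 13.5% of the genes tested (1792 genes) were more than 2-fold from the first DMSO library. Both recovered libraries lay below both first libraries of DMSO and 2 h in 9 of the 10 genes, CLPX being the exception, and in 39.9% of all genes. Relative depth, read from the smallest steps of low values, was 0.769 to 1.11 times that of the first DMSO library, and the total depth is not known from the table. One small RNA gene, MIR6723, took 5.04% to 25.0% of the summed FPKM of a library. The epithelial markers EPCAM, KRT8, KRT18, KRT19 and CDH1 were all above 10 FPKM in every library. Of the ovarian markers, PAX8 was at 1.64 to 2.12 FPKM, and WT1 and MUC16 were below 1 FPKM in each library. Of the fibroblast markers, COL1A2, COL3A1 and DCN were below 1 FPKM in each library and COL1A1 was at 0.596 to 2.18 FPKM. Of the immune markers, PTPRC and CD3E were at or near 0, whereas CD68 was at 22.7 to 37.3 FPKM and CD14 at 3.10 to 9.36 FPKM, highest at 12 h. Of the endothelial markers, CDH5 and VWF were below 1 FPKM, and PECAM1 was at 10.7 and 7.74 FPKM in the recovered DMSO and 2 h libraries against less than 1 FPKM elsewhere. The part of these differences in the results was not tested.

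In each comparison the groups were compared by limma on log2(FPKM + 0.1), in 1 model of all 6 libraries with 2 residual degrees of freedom. The single 6 h and 12 h libraries have no replicate and are assumed to vary like the DMSO and 2 h libraries. A log2 fold change is the difference from the mean log2 level of the DMSO libraries, and adjusted p-values are Benjamini-Hochberg values over all 13287 genes. The comparisons with DMSO share the same DMSO libraries. In RNA from whole cultures, fewer cells with a transcript and less of it per cell cannot be told apart.

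HSPD1 encodes HSP60, the barrel of the mitochondrial chaperonin. Its span on the minus strand, chr2:197486581-197516737 (GRCh38, GENCODE 29), includes HSPE1 on the opposite strand. Its level was 966 and 532 FPKM in DMSO (first and then recovered library, an order kept throughout), 1228 and 913 FPKM after 2 h, 1839 FPKM after 6 h and 2055 FPKM after 12 h. The 6 h and 12 h libraries were above both DMSO libraries, whereas the recovered 2 h library lay between the DMSO libraries. The log2 fold change of HSPD1 was 0.56 at 2 h (SE 0.40, limma adjusted p = 1), 1.36 at 6 h (SE 0.48, adjusted p = 0.923) and 1.52 at 12 h (SE 0.48, adjusted p = 0.537). The 95% interval at 12 h ran from 0.09 to 2.95, so the unadjusted limma p of 0.0423 did not hold after adjustment. Within the pairs at 2 h, HSPD1 was higher than DMSO by 0.35 on the log2 scale in the first libraries and by 0.78 in the recovered ones.

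HSPE1 encodes HSP10, the lid that closes the HSP60 barrel, and lies on the plus strand at chr2:197499994-197503457. Its level was 665 and 380.5 FPKM in the DMSO libraries, 772 and 579.9 FPKM after 2 h, 1118 FPKM after 6 h and 1319 FPKM after 12 h. The order of the libraries was the same as for HSPD1, with 6 h and 12 h above both DMSO libraries. The log2 fold change was 0.41 at 2 h (SE 0.38), 1.15 at 6 h (SE 0.46) and 1.39 at 12 h (SE 0.46, limma adjusted p = 0.540). The table gives HSPE1, MOB4 and the readthrough gene HSPE1-MOB4 the same values for 1 merged locus, so this level covers all of them and how much belongs to HSPE1 is uncertain.

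HSPD1 and HSPE1 are known to be transcribed in opposite directions from a shared promoter region. A stretch between 1 of the RefSeq starts of HSPD1 and the start of HSPE1 is therefore shown. Stretches from 2 cytosolic chaperone genes are given for comparison. A heat shock element is a run of alternating GAA and TTC units. The sequences are RefSeq sequences (GRCh38.p14), 5′ to 3′ on the gene's strand, with the matched units in capitals.
HSPD1, minus strand, chr2:197500061-197500090: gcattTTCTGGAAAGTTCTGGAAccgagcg
HSPA1A, plus strand, chr6:31815426-31815455: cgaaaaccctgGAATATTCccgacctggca
DNAJB1, minus strand, chr19:14518456-14518485: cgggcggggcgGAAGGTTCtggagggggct
DNAJB1, minus strand, chr19:14518426-14518455: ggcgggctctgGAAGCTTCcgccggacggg

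The HSPD1 stretch holds 4 units in a row (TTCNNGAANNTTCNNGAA, searched on both strands in the 250 bases before a start). It lies 189 bases within HSPD1 from the farther of its RefSeq starts, 228 bases before the nearer one and 294 bases before the start of HSPE1. In GENCODE 29 it falls in an intron of an HSPD1 transcript and in the untranslated part of the first exon of an HSPE1 transcript. A 4-unit run was found in 0.0199% of 35116 promoter windows (7 windows), and the shorter TTCNNGAANNTTC, which the 4-unit run contains, in 0.441%. Of the 7 member genes in the RefSeq promoter table, HSPD1 alone held either run, and of 12 cytosolic heat shock genes 0 held the 4-unit run and 3 held the 3-unit run. The 2-unit GAANNTTC was in 8 of those 12 genes and in 5.78% of windows. TGATGNAA, a form of the element bound by C/EBP and ATF factors, was in 0 of the 7 members and in 3.14% of windows. CLPP, GRPEL1 and YME1L1 had no entry. Counts here are of genes and shares are of windows. A gene can have more than 1 window (9 windows for the 7 members), so counts and shares are not directly comparable. A match describes letters only and not a bound site.

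**Figure D1:**
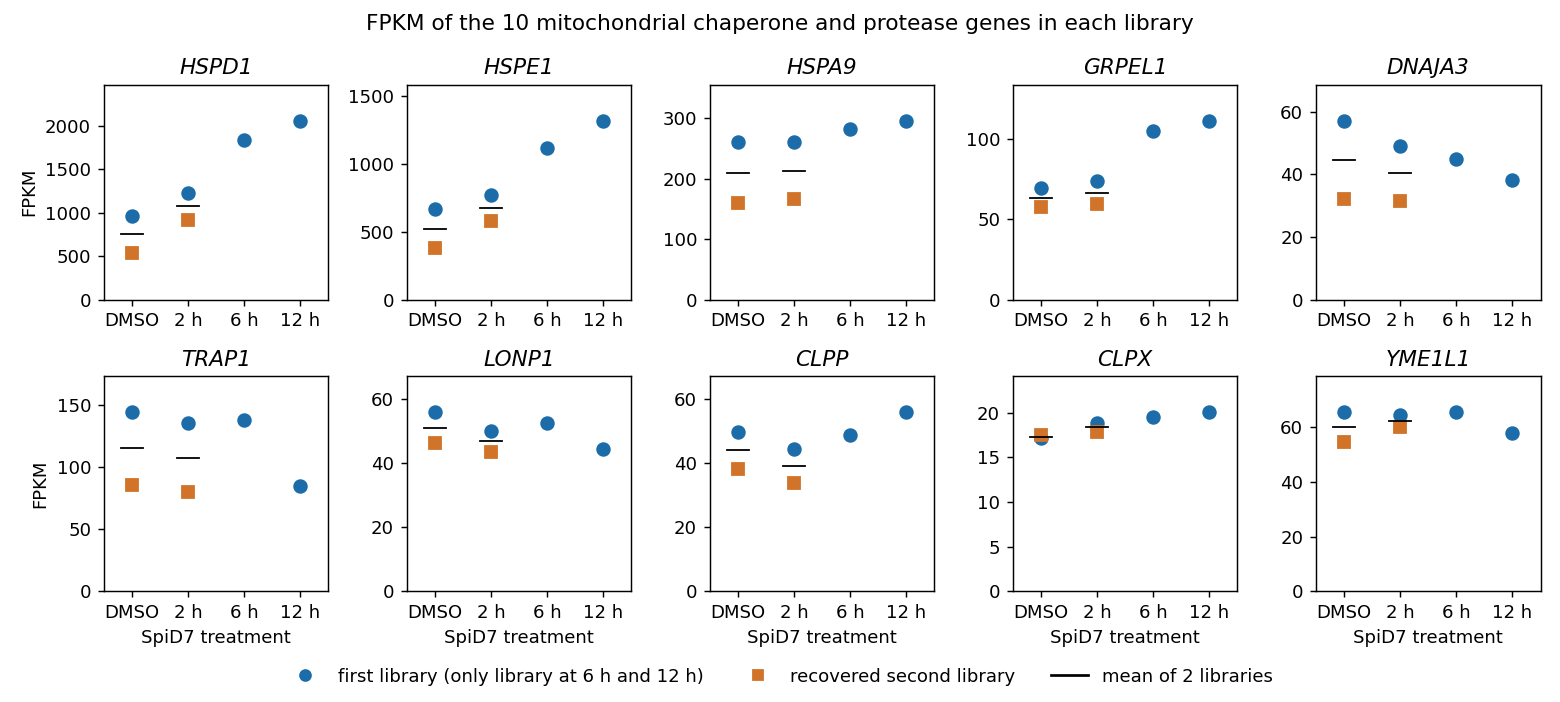
FPKM (vertical axes, each from 0) of the 10 genes in the DMSO, 2 h, 6 h and 12 h libraries. Circles are first libraries (the only ones at 6 h and 12 h), squares are the recovered libraries and bars are means of 2 libraries. HSPD1, HSPE1 and GRPEL1 stand above both DMSO libraries at 6 h and 12 h, whereas DNAJA3, LONP1 and TRAP1 at 12 h lie within or below the DMSO range.

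GRPEL1, the nucleotide exchange factor that lets the mitochondrial HSP70 release its client, was the next gene in size of difference. It lies on the minus strand at chr4:7058906-7068197. Its level was 69.6 and 57.7 FPKM in DMSO, 74.1 and 59.5 FPKM after 2 h, 105 FPKM after 6 h and 112 FPKM after 12 h. As with the chaperonin genes, the late libraries were above both DMSO libraries and the 2 h libraries overlapped them. The log2 fold change of GRPEL1 was 0.07 at 2 h (SE 0.22), 0.73 at 6 h (SE 0.27, limma adjusted p = 0.931) and 0.81 at 12 h (SE 0.27, limma adjusted p = 0.540). Its 95% interval at 12 h was 0.02 to 1.61. The DMSO libraries were closer for GRPEL1 than for HSPD1, with a recovered minus first difference of -0.27 against -0.86 on the log2 scale.

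HSPA9 encodes mortalin, the mitochondrial HSP70 that GRPEL1 serves (chr5:138553756-138575724, minus strand). It stood at 261 and 159.6 FPKM in DMSO, 259.9 and 166 FPKM after 2 h, 282 FPKM after 6 h and 296 FPKM after 12 h. Both late libraries exceeded the first DMSO library by little, with log2 differences of 0.11 and 0.18, and the recovered one by 0.82 and 0.89. The log2 fold change of HSPA9 against both was 0.47 at 6 h and 0.54 at 12 h (SE 0.48 for each, limma adjusted p = 0.977 and 0.800). DNAJA3, the J-domain cochaperone that stimulates HSPA9 (chr16:4425805-4456775, plus strand), took another course. Its level was 57.1 and 32.0 FPKM in DMSO, 49.1 and 31.4 FPKM after 2 h, 44.7 FPKM after 6 h and 38.2 FPKM after 12 h. The late libraries lay between the DMSO libraries, and the log2 fold change of DNAJA3 was 0.07 at 6 h and -0.16 at 12 h (SE 0.52).

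TRAP1 is the mitochondrial HSP90 (chr16:3651639-3717597, minus strand). Its level was 144 and 85.8 FPKM in DMSO, 135 and 79.7 FPKM after 2 h, 138 FPKM after 6 h and 84.5 FPKM after 12 h. The 12 h library was just below the recovered DMSO library, by -0.02 on the log2 scale, and below the first one by -0.77. Against both, the log2 fold change of TRAP1 at 12 h was -0.40 (SE 0.53, limma adjusted p = 0.863). Its 95% interval, -1.96 to 1.16, held differences of 2-fold in either direction.

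The 4 protease genes lay between 17.1 and 65.6 FPKM over all 6 libraries. LONP1, the soluble AAA+ protease of the matrix (chr19:5691834-5720572, minus strand), was at 55.8 and 46.0 FPKM in DMSO, 50.0 and 43.3 FPKM after 2 h, 52.3 FPKM after 6 h and 44.2 FPKM after 12 h. CLPP, the peptidase chamber of the ClpXP protease (chr19:6361452-6368910, plus strand), was at 49.6 and 38.2 FPKM in DMSO, 44.2 and 33.6 FPKM after 2 h, 48.6 FPKM after 6 h and 55.8 FPKM after 12 h. At 12 h LONP1 was below both DMSO libraries and CLPP above both, with log2 fold changes of -0.20 (SE 0.25) for LONP1 and 0.36 (SE 0.31) for CLPP.

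CLPX, the unfoldase that feeds CLPP (chr15:65148219-65185342, minus strand), had the lowest levels of the 10 genes, at 17.1 and 17.5 FPKM in DMSO, 18.9 and 17.9 FPKM after 2 h, 19.6 FPKM after 6 h and 20.1 FPKM after 12 h. All 4 treated libraries were above both DMSO libraries, by a small margin: the log2 fold change of CLPX was 0.09, 0.17 and 0.21 at 2 h, 6 h and 12 h (SE 0.16 at 2 h and 0.19 later). YME1L1, a protease of the inner membrane that faces the intermembrane space (chr10:27110112-27155266, minus strand), was at 65.5 and 54.8 FPKM in DMSO, 64.5 and 60.2 FPKM after 2 h, 65.6 FPKM after 6 h and 58.1 FPKM after 12 h. Its 12 h library lay between the DMSO libraries. For these 4 genes the 95% intervals at 12 h had a lowest limit of -0.92 (LONP1) and a highest limit of 1.29 (CLPP), and limma adjusted p was 0.796 or more.

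At 2 h against DMSO, which asks for the earliest response, 0 of the 10 genes were more than 2-fold higher (2.32% of all genes) and 0 were more than 2-fold lower (0.662%). CLPX was the 1 gene with both 2 h libraries above both DMSO libraries (13.7% of all genes), and 0 had both below (8.1%). The median log2 fold change of the 10 genes was 0.04, against -0.01 over all genes, and it turned with the libraries used. It was 0.24 without the first DMSO library, -0.17 without the recovered one, -0.16 without the first 2 h library and 0.21 without the recovered one. None had a limma adjusted p under 0.05, a limit that 3 genes passed (0.0226%), and 0 had an unadjusted p under 0.05 (2.84%). HSPD1, HSPE1, CLPX and GRPEL1 (4 genes) were higher at 2 h in both the first and the recovered pair, and TRAP1, DNAJA3, LONP1 and CLPP (4 genes) were lower in both, patterns held by 31.5% and 34.4% of all genes. Without the recovered 2 h library 4 genes were above both DMSO libraries (32.4% of all genes), and without the first DMSO library 6 were above the one left (32.7%). Without the first 2 h library 4 genes were below both DMSO libraries (32.4%), and without the recovered DMSO library 6 were below the one left (32.9%).

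At 6 h against DMSO, HSPD1 and HSPE1 were more than 2-fold higher (2 of 10 genes, against 5.66% of all genes), by 2.57-fold and 2.22-fold, and 0 genes were more than 2-fold lower (3.1%). Without the recovered DMSO library neither passed 2-fold (0 genes, against 6.28% of all genes), since against the first DMSO library alone the log2 differences were 0.93 for HSPD1 and 0.75 for HSPE1. HSPD1, HSPE1, HSPA9, GRPEL1, CLPX and YME1L1 (6 of 10, against 31.6%) were above both DMSO libraries and 0 were below both (29.2%). YME1L1 exceeded the first DMSO library by only 0.0017 on the log2 scale. With 1 DMSO library left out, 10 were above the recovered one (55.3% of all genes) or 4 below the first one (53.1%). All 10 genes were higher than the DMSO mean (53.2% of all genes), and their median was 0.24 against 0.03 over all genes. Set against a single DMSO library, the median was 0.06 with the first and 0.58 with the recovered library. None passed a limma adjusted p of 0.05 (0 of 10, against 0.294%, or 39 genes), and 0 had an unadjusted p under 0.05 (5.55%).

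At 12 h against DMSO, the latest time, HSPD1 and HSPE1 were again more than 2-fold higher (2 of 10, against 6.48%), by 2.87-fold and 2.62-fold, and 0 genes were more than 2-fold lower (3.76%). Against the first DMSO library alone HSPD1 still passed 2-fold (1 gene, against 8.21%), with a log2 difference of 1.09, and HSPE1 stood at 0.99. HSPD1, HSPE1, HSPA9, GRPEL1, CLPX and CLPP (6 of 10, against 30.1%) were above both DMSO libraries, and TRAP1 and LONP1 (2 of 10, against 35.6%) were below both. Without the recovered DMSO library 4 genes were below the one left (54.8%). None passed a limma adjusted p of 0.05 (0 of 10, against 0.339%, or 45 genes), while HSPD1, HSPE1 and GRPEL1 had an unadjusted limma p under 0.05 (3 of 10, against 9.19%). The median of the 10 genes was 0.28, against -0.05 over all genes, and it was 0.18 with the first DMSO library alone and 0.40 with the recovered one alone. For HSPD1 and HSPE1 together the median was 1.46, and for the 4 proteases 0.08. With HSPD1, HSPE1 and GRPEL1, the members with the highest log2 fold changes at this time, left out, the median of the other 7 genes was -0.04.

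**Figure D2:**
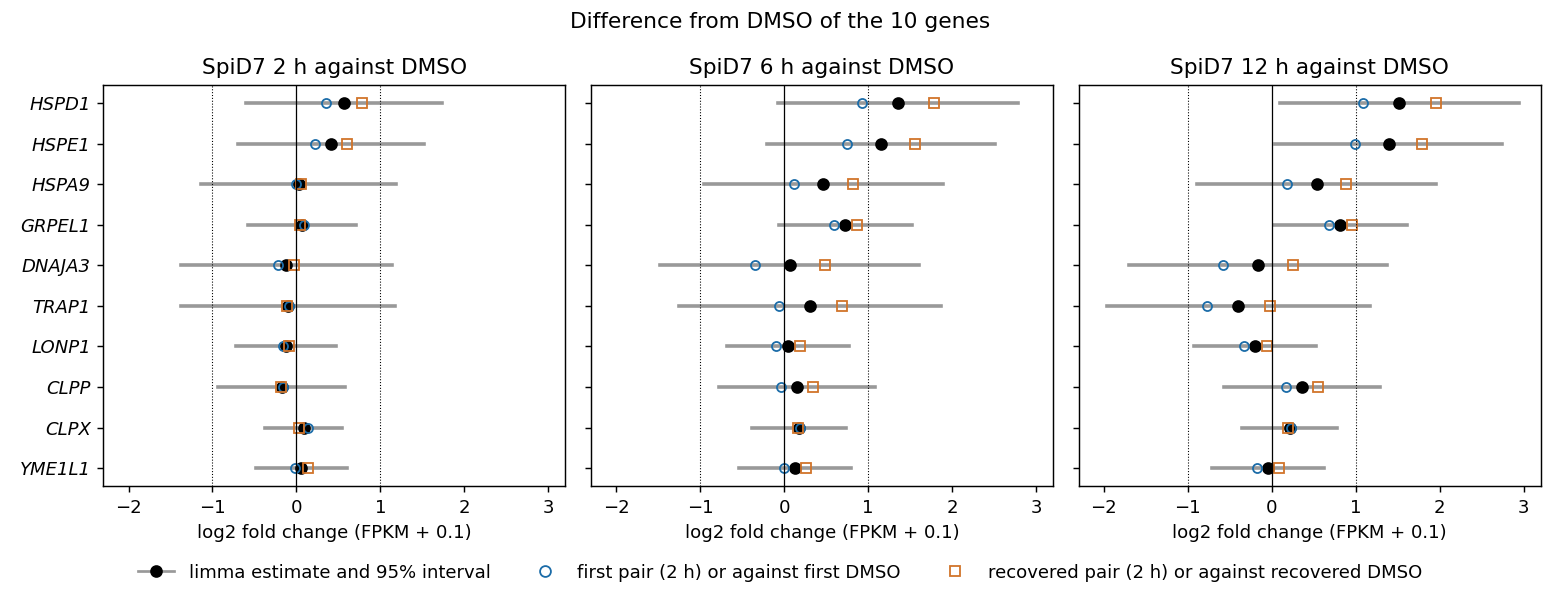
Log2 fold change of the 10 genes from DMSO at 2 h, 6 h and 12 h (horizontal axis, on FPKM + 0.1). Black points and grey bars are limma estimates with 95% intervals, open circles use the first libraries and open squares the recovered ones (at 6 h and 12 h, the recovered DMSO library), and dotted lines mark 2-fold. HSPD1 and HSPE1 lie right of the 2-fold line at 6 h and 12 h by the limma estimate, and 3 intervals exclude 0, all at 12 h (HSPD1, HSPE1 and GRPEL1).

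From 2 h to 12 h of SpiD7, GRPEL1 was higher by 0.75 on the log2 scale (SE 0.27, limma adjusted p = 0.812), HSPE1 by 0.98 (SE 0.46, limma adjusted p = 0.814) and HSPD1 by 0.96 (SE 0.48, limma adjusted p = 0.818). None of the 10 genes passed an adjusted p of 0.05 in this comparison by limma (0 of 10, against 0.361%, or 48 genes), nor an unadjusted one (6.01%). HSPD1, HSPE1, HSPA9, CLPX and GRPEL1 (5 of 10, against 21.3%) had both late libraries above both DMSO libraries. In the same 5 of 10 genes the 6 h library was above every DMSO and 2 h library and the 12 h library above the 6 h one, an order seen in 8.94% of all genes. Between the single 6 h and 12 h libraries, which have no replicate, HSPE1 differed by 0.24 on the log2 scale, HSPD1 by 0.16 and TRAP1 by -0.71.

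Ratios between members within a library do not depend on its scaling. HSPD1 was set against HSPE1, TRAP1, HSPA9 and LONP1 only. A ratio to GRPEL1, the next gene in size of difference, was not taken. HSPD1 to HSPE1 stayed between 1.40 and 1.64, at 1.45 and 1.40 in DMSO, 1.59 and 1.57 after 2 h, 1.64 after 6 h and 1.56 after 12 h. The HSPE1 value in this ratio is shared with MOB4. HSPD1 is listed under the same merged locus (chr2:197486583-197553699) with values of its own. HSPD1 to TRAP1 was 6.70 and 6.20 in DMSO, 9.09 and 11.5 after 2 h, 13.3 after 6 h and 24.3 after 12 h. All 4 treated libraries were above both DMSO libraries in this ratio, which was close in the DMSO libraries although the level of each gene was not. HSPD1 to HSPA9 followed the same order, from 3.71 and 3.33 in DMSO through 4.73 and 5.49 after 2 h to 6.53 and 6.95 after 6 h and 12 h. HSPD1 to LONP1 was less close in the DMSO libraries, at 17.3 and 11.6. It was 24.5 and 21.1 after 2 h, 35.2 after 6 h and 46.5 after 12 h. The ratio of the cochaperone DNAJA3 to its HSP70, HSPA9, went the other way, from 0.219 and 0.201 in DMSO through 0.189 and 0.189 after 2 h to 0.159 after 6 h and 0.129 after 12 h. Other partners gave no such order. GRPEL1 to HSPA9 was 0.267 and 0.362 in DMSO, 0.285 and 0.358 after 2 h, 0.373 after 6 h and 0.377 after 12 h, and CLPP to CLPX was 2.90 and 2.18 in DMSO, 2.34 and 1.88 after 2 h, 2.48 after 6 h and 2.78 after 12 h, so that the 2 h libraries of the former and the late libraries of the latter overlapped DMSO. HSPD1 and HSPE1 together made up 69.4% and 65.0% of the summed FPKM of the 10 genes in DMSO, 74.2% and 75.2% after 2 h, 79.7% after 6 h and 82.7% after 12 h. These ratios are descriptions, and no test was made on them.

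**Figure D3:**
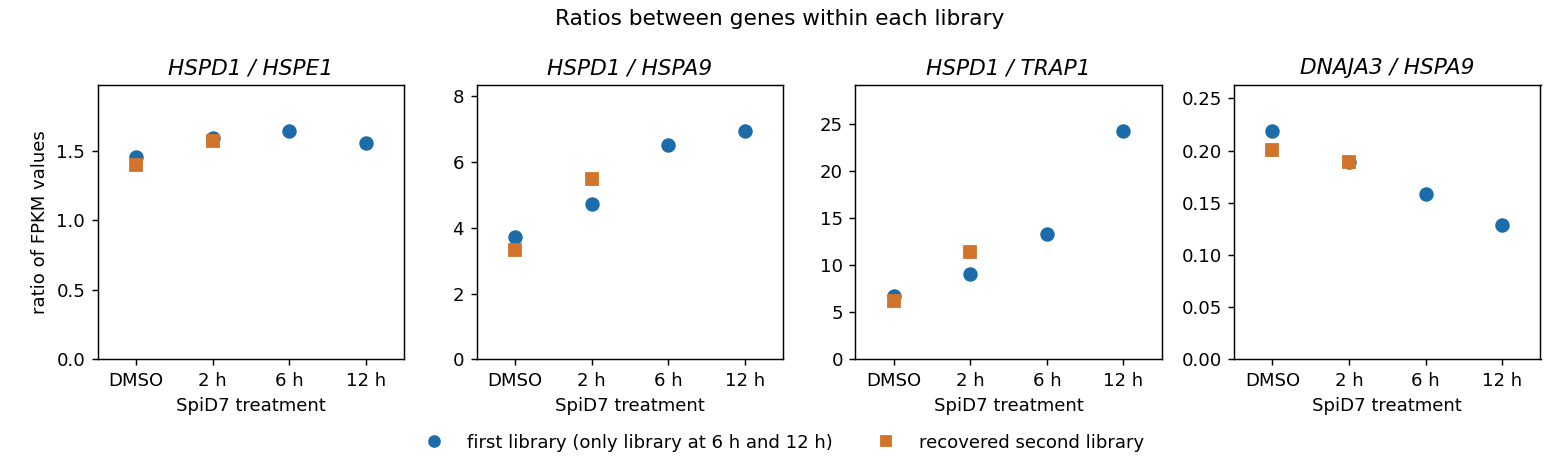
Ratios of FPKM between pairs of genes within each library (vertical axes, each from 0), with circles for first libraries and squares for recovered ones. HSPD1 to TRAP1 runs from 6.20 in a DMSO library to 24.3 at 12 h, HSPD1 to HSPE1 stays between 1.40 and 1.64, and DNAJA3 to HSPA9 is lower in every treated library than in DMSO.

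Mitochondrial genes with no folding role gave a measure of the organelle's other nuclear-encoded RNAs. The geometric mean of 20 such genes (enzymes of the citric acid cycle, respiratory chain subunits and carriers) was 99.0 and 92.5 FPKM in DMSO, 95.8 and 87.0 FPKM after 2 h, 92.3 FPKM after 6 h and 77.8 FPKM after 12 h. Their median log2 fold change was -0.07, -0.00 and -0.22 at 2 h, 6 h and 12 h, and at 12 h 13 of the 20 were below both DMSO libraries (35.6% of all genes). Among them SDHA, a subunit of succinate dehydrogenase, had the lowest log2 fold change at 12 h (-0.94) and the cytochrome oxidase subunit COX4I1 the highest (0.21). Divided by this geometric mean, 8 of the 10 members, all but TRAP1 and DNAJA3, were above both DMSO libraries at both 6 h and 12 h, as were 34% of all genes. After 2 h this held for HSPD1, CLPX and YME1L1 (3 of 10, against 18.6%). By their own levels, 5 of the 10 were above both DMSO libraries at both 6 h and 12 h (21.3% of all genes). At 12 h the level of LONP1 was below both DMSO libraries and that of YME1L1 between them, while the geometric mean was lower than in DMSO.

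The rest of the mitochondrial folding and import machinery had medians nearer to 0 at 12 h than the 10 genes, but not all of it at 6 h. Medians at 6 h were 0.24 for other chaperones, 0.29 for import genes and -0.00 for other proteases, against 0.24 for the 10 genes. Without HSPD1, HSPE1 and GRPEL1, the members with the highest log2 fold changes at 12 h, the median of the 7 remaining members at 12 h was -0.04. The highest genes of the other lists were not left out in this way, so this median is not comparable with theirs. Of 11 other mitochondrial chaperones, 0 were more than 2-fold from DMSO at any time, and their median at 12 h was 0.01. DNLZ, a helper of HSPA9, had the highest log2 fold change at 12 h among them (0.72), and DNAJC19, a J-domain protein of the inner membrane, the lowest (-0.31). GRPEL2, the paralog of GRPEL1, was at 9.11 and 6.80 FPKM in DMSO, 13.2 and 12.2 FPKM after 2 h, 14.0 FPKM after 6 h and 10.7 FPKM after 12 h, so that all 4 treated libraries were above both DMSO libraries. After 2 h, 6 h and 12 h its differences from DMSO on the log2 scale were 0.68, 0.82 and 0.43 (limma adjusted p = 1, 0.881 and 0.715). Of 13 other mitochondrial proteases, 0 were more than 2-fold from DMSO, with a median of -0.16 at 12 h. At 12 h, 2 were above both DMSO libraries (30.1% of all genes) and 7 below both (35.6%). The serine protease HTRA2 stood at 0.35 and the stress-activated inner membrane protease OMA1 at -0.98. OMA1 was at 6.88 and 9.01 FPKM in DMSO and at 3.93 FPKM after 12 h (limma adjusted p = 0.503). The 13 import genes had a median of 0.29 at 6 h and 0.12 at 12 h, running at 12 h from -0.29 for TIMM17B to 0.50 for TIMM17A, both channel subunits of the inner membrane translocase. None of these lists had a gene with a limma adjusted p under 0.05 at any time (0 genes), and at 12 h an unadjusted limma p under 0.05 was held by 2 of the 13 other proteases and by 0 of the other chaperones and import genes (9.19% of all genes). At 2 h and at 6 h it was held by 1 of the 11 other chaperones, GRPEL2, and by 0 of the other proteases and import genes (2.84% and 5.55%).

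Of 12 genes named as regulators of the mitochondrial response, 11 passed the level of 1 FPKM, the estrogen receptor gene ESR1 being below it. ATF5, the factor most directly linked to the response, was at 29.2 and 20.1 FPKM in DMSO, 29.98 and 17.1 FPKM after 2 h, 27.4 FPKM after 6 h and 22.3 FPKM after 12 h. Its late libraries lay between the DMSO libraries, and its difference from the DMSO mean was 0.18 at 6 h and -0.12 at 12 h on the log2 scale. DDIT3, which encodes CHOP, had the highest log2 fold change of the list at 12 h. Its level was 13.9 and 46.3 FPKM in DMSO, 99.1 and 188 FPKM after 2 h, 203 FPKM after 6 h and 124 FPKM after 12 h, so that all 4 treated libraries were above both DMSO libraries and the 6 h library was highest. After 2 h, 6 h and 12 h, DDIT3 differed from DMSO by 2.42, 2.99 and 2.29 on the log2 scale (limma adjusted p = 1, 0.836 and 0.598). ATF4, the factor upstream of CHOP in the integrated stress response, was at 153 and 202 FPKM in DMSO, 269.5 and 274 FPKM after 2 h, 343 FPKM after 6 h and 326 FPKM after 12 h, so that all 4 treated libraries were above both DMSO libraries. Its log2 fold change was 0.63, 0.96 and 0.89 at 2 h, 6 h and 12 h. The mitochondrial deacetylase gene SIRT3 had the lowest, at -0.76. Over the 11 genes the median log2 fold change at 12 h was -0.08. At that time 0 had a limma adjusted p under 0.05 (0.339% of all genes). An unadjusted limma p under 0.05 was held by 2 of the 11 (9.19% of all genes). These were ATF4, which was higher than DMSO, and SIRT3, which was lower. DDIT3, with an SE of 0.93 at 12 h, was not among them.

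Cytosolic heat shock genes and endoplasmic reticulum chaperone genes are the companions with which the mitochondrial genes can be set side by side. Of 12 cytosolic heat shock genes, 5, 8 and 12 were more than 2-fold higher at 2 h, 6 h and 12 h. Over all genes the shares were 2.32%, 5.66% and 6.48%. The 12 cytosolic genes had medians of 0.65, 1.34 and 1.90. At 12 h they ran from 1.08 for HSPA4, an HSP110-type exchange factor, to 5.31 for the inducible HSP70 gene HSPA1B. Of 12 endoplasmic reticulum chaperones, 1, 2 and 4 were more than 2-fold higher, against the same shares of all genes. Their medians were 0.00, 0.23 and 0.68, and at 12 h they ran from 0.18 for HYOU1 to 2.43 for DNAJB9. The 10 mitochondrial genes, with 0, 2 and 2 more than 2-fold higher and medians of 0.04, 0.24 and 0.28, had a lower median than the cytosolic genes at every time, and the difference between lists was not tested. HSPD1 at 12 h (1.52) lay within the range of the cytosolic list, above HSPA8 (1.32), the constitutive HSP70, and near DNAJA1 (1.53). No gene of either list had a limma adjusted p under 0.05 at any time (0 of 12 in each). Over all genes the shares were 0.0226%, 0.294% and 0.339% at 2 h, 6 h and 12 h. Even HSPA1B, at 5.31 on the log2 scale at 12 h, missed this limit. Missing it, in these lists or in the 10 mitochondrial genes, therefore does not show that a gene was unchanged. An unadjusted limma p under 0.05 at 12 h was held by 11 of the 12 cytosolic genes, against 9.19% of all genes. It was held by 4 of the 12 endoplasmic reticulum genes.

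**Figure D4:**
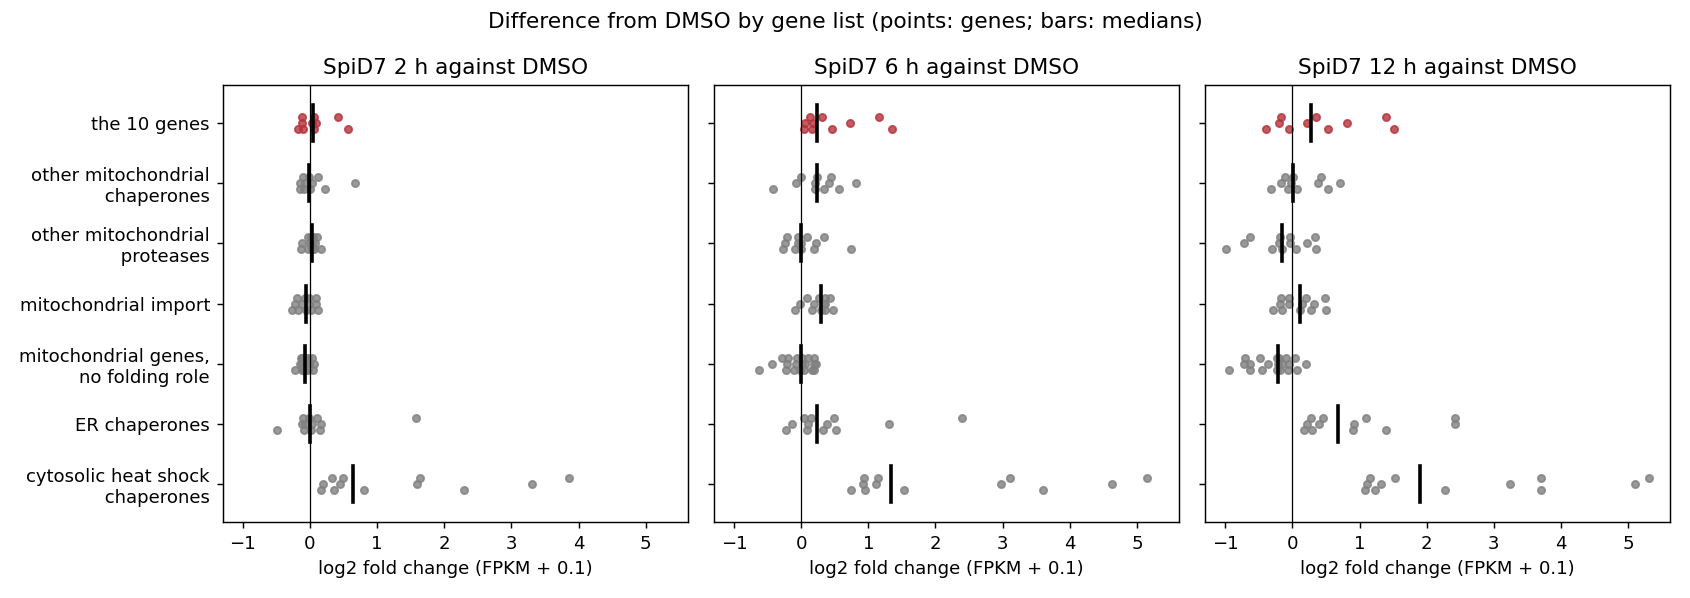
Log2 fold change from DMSO at 2 h, 6 h and 12 h (horizontal axis, on FPKM + 0.1) for the 10 genes (red) and 6 other gene lists (grey). Each point is a gene, spread vertically for visibility, and black bars are medians. At 12 h the medians are 0.28 for the 10 genes, -0.22 for mitochondrial genes with no folding role, 0.68 for endoplasmic reticulum chaperones and 1.90 for cytosolic heat shock chaperones.

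The genes whose course over the 6 libraries was most like that of HSPD1 were found by the root mean square difference of centred log2 levels. Differences between first and recovered libraries therefore entered the ranking as well as differences between treatments. Apart from the merged HSPE1 locus, which was at 0.081 under each of its symbols, MED26, a Mediator subunit, was nearest at 0.062, followed by CACYBP, a binding partner of S100 proteins, at 0.087 and the pseudogene RNF216P1 at 0.099. Among the members, GRPEL1 was at 0.333 (rank 261 of 13286 genes) and HSPA9 at 0.393 (rank 511). The remaining 6 members, leaving out HSPE1, ranked between 1705 and 5624.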

How the data were processed

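RNA of OVCAR5 cells was sequenced from 6 libraries. Per the labels and the study's methods, single-end reads were trimmed by the authors (Trim Galore) and aligned with TopHat 2.0.8, and expression was estimated and compared with Cufflinks and Cuffdiff 2.1.1, which scales each comparison on its own. The methods name a mouse build beside the human genome, while the deposited loci are those of hg38. The deposited table holds 4 comparisons, and for each the FPKM of both samples, the log2 fold change, the p-value and the q-value of the authors. Those fold changes and p-values are the authors' results and were not used. All value columns could be given to a sample or group (0 were not).

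Groups were taken from the sample labels. The columns named for replicate 2 of DMSO and 2 h were read as the authors' group means, because 0 of 18195 (DMSO) and 0 of 18722 (2 h) rows above 0 in the first library were at 0 there and many rows sat at the same lower limit (811 and 964 rows). The share of the first library was 0.526 and 0.509. Replicate 2 is the remainder divided by that share, which assumes equal weights, and a remainder under 0.2% was taken as 0. The 6 h and 12 h libraries were brought to the first comparison by the shared DMSO library (factors 0.972 and 0.994). Rows of 1 symbol were summed (33085 rows, and 1 row without a name left out). Genes were kept where FPKM averaged 1 or more.

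log2(FPKM + 0.1) was fitted with limma 3.58.1 in R 4.3.3 (lmFit, contrasts.fit, eBayes, prior degrees of freedom 1.48), checked on simulated data. Tables were handled with Python 3.11.15, pandas 2.3.3 and numpy 2.4.6. Alternatives changed the pseudocount, filter, scaling, summing of rows, reading of the group columns and variance trend, left out single libraries or added a replicate block. Counting merged loci once was added after seeing the data. Among genes tested, 1080 symbols share locus and values with another symbol, HSPE1 included. Named genes were the 10 members, the 5 genes nearest to HSPD1 and the genes at both ends of each list at 12 h. HSPA8, DNAJA1, GRPEL2, ATF4, ATF5, ESR1 and the markers of other cell types with values given were named after their values were seen. Members and lists were chosen with earlier results of these data known, so counts over them are descriptions. Genes encoded in mitochondrial DNA were not analysed here.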

Additional observations from a re-analysis of the deposited data

How the results depend on the processing

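With 2 DMSO libraries that differ, 2 at 2 h and 1 at each later time, no adjusted limma p of a member passed 0.05 in any alternative. The sign at 6 h and 12 h was the same in every alternative for HSPD1, HSPE1, HSPA9, GRPEL1 and CLPX. In these 5 genes both late libraries were above both DMSO libraries. Leaving out a DMSO library therefore could not turn their sign, and leaving out a 2 h library does not change these differences. The lowest adjusted limma p of HSPD1 at 12 h was 0.0635, against 0.537 in the main fit. At 6 h the lowest adjusted limma p of HSPD1 came with the group columns used as deposited. The SE of HSPD1 at 6 h was 0.21 in that fit, against 0.48 in the main fit. Those columns are read here as means that include the first library, so their spread from it is narrowed. Depth is known only in relative terms, and a level of HSPE1 cannot be told apart from that of MOB4. Reading the group columns as replicate 2 (as deposited) gave 3 members above and 1 below both DMSO libraries at 2 h, 1 more than 2-fold higher at 6 h and 4 below at 12 h. Median-ratio scaling gave 0 above at 2 h and 5 above at 6 h. Leaving out each library moved the members above both DMSO libraries at 2 h from 1 to 6 and those below from 0 to 6, those above at 6 h from 6 to 10 and below from 0 to 4, those below at 12 h from 2 to 4, and those more than 2-fold higher from 0 to 2 at 6 h and from 1 to 2 at 12 h.

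Signs turned for small differences. HSPA9 at 2 h was -0.0024 and LONP1 at 6 h -0.0015 under median-ratio scaling. DNAJA3 from 2 h to 12 h was 0.025 under median-ratio and 0.017 under upper-quartile scaling, and YME1L1 at 12 h was 0.021 under the latter. As deposited, DNAJA3 and LONP1 at 6 h were -0.17 and -0.026. Leaving out 1 library gave, at 2 h, ranges of -0.37 to 0.023 for CLPP, -0.54 to 0.29 for DNAJA3, -0.092 to 0.23 for GRPEL1, -0.33 to 0.38 for HSPA9, -0.26 to 0.016 for LONP1, -0.48 to 0.28 for TRAP1 and -0.072 to 0.19 for YME1L1. At 6 h they were -0.032 to 0.34 for CLPP, -0.35 to 0.48 for DNAJA3, -0.092 to 0.18 for LONP1 and -0.064 to 0.68 for TRAP1, and at 12 h -0.58 to 0.25 for DNAJA3 and -0.17 to 0.084 for YME1L1. From 2 h to 12 h they were -0.36 to 0.28 for DNAJA3, -0.18 to 0.030 for LONP1 and -0.68 to 0.084 for TRAP1. The cause was not tested. Over all genes, calls at an adjusted p under 0.05 ran from 0 to 107 at 2 h, 22 to 264 at 6 h, 26 to 738 at 12 h and 29 to 226 from 2 h to 12 h, with the highest counts as deposited in the comparisons with DMSO.

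With the replicate number as a block at 2 h, 0 genes passed an adjusted p of 0.05 by limma and 1874 had an unadjusted p under 0.05, of them 0 of the 10 members. HSPD1 at 2 h had an adjusted p of 0.352 in that fit. Deviations of libraries with the same number correlated at 0.369 over genes, with 2 pairs only, and the pairing rests on the numbers alone.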
